A study of Mus musculus with 12 samples.

Results

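The genes described here encode the proteins of the cytosolic ribosome. Members were all genes whose symbol is Rpl or Rps followed by a number with an optional closing letter a, x, l, y or c, together with the P stalk genes and Rpsa. This rule uses only symbols and took 83 of the 35869 genes in the count table, 51 of the large subunit (Rpl) and 32 of the small subunit (Rps). Of these, 76 are core genes, with 43 of the large subunit, 30 of the small subunit and 3 of the P stalk. The other 7 are relatives whose symbols end in l. Rps3a1, Fau and Rack1 belong to the ribosome but have symbols outside the rule, and are described apart.

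RNA came from bone marrow haematopoietic stem cells (HSCs) of mice, sorted into CD41pos and CD41neg fractions; CD41 is the integrin subunit encoded by Itga2b, carried by megakaryocytes and by part of the stem cells. RUNX1 KO cells had the genotype MxCre1+/-,RUNX1f/f and WT cells MxCre1-/-,RUNX1f/f, so both carried floxed alleles of Runx1, a transcription factor of blood formation, and the Cre gene was present only in KO. The Mx promoter answers to interferon, which poly(I:C) induces, and is active in many cell types, so deletion need not be limited to HSCs. KO and WT mice alike were injected 4 times with poly(I:C) and sampled 4 weeks later. There were 4 groups of 3 libraries, CD41pos KO (KO1, KO2, KO3), CD41pos WT (WT1, WT3, WT4), CD41neg KO (KO1, KO2, KO3) and CD41neg WT (WT2, WT3, WT4). The labels do not say whether the libraries of a group came from separate animals, so p-values measure the spread between libraries of a group, and this spread may be technical.

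A ribosome joins a small subunit, which reads the messenger RNA, with a large subunit, which forms the peptide bond. Each ribosomal protein is used in a single copy per ribosome apart from the stalk proteins, and cells make the proteins in matched amounts. Many ribosomal protein transcripts begin with a C and a run of pyrimidines, the 5′ terminal oligopyrimidine (TOP) tract, through which mTOR and LARP1 set their translation. HSCs hold protein synthesis low, and loss of a copy of several of these genes causes Diamond-Blackfan anaemia in humans, a failure of red cell production.

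Starts of 6 members are printed because they carry the pyrimidine run and include members with large and small KO differences. Another 3 are printed because they lack a run within 5 bases of the annotated start. The window of Rps12 holds a run of C and T further downstream, which this limit leaves out. Each line gives 10 bases before and 20 bases from the annotated start, read 5′ to 3′ on the gene's strand from RefSeq (GRCm38.p6), and capitals mark the run of C and T that begins with C within 5 bases of the start.
Rps21: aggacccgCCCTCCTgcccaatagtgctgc
Rpl38: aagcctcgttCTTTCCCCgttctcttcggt
Rps6: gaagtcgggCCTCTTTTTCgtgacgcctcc
Rpl13a: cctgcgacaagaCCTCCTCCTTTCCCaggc
Rplp2: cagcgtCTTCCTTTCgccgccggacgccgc
Rps27: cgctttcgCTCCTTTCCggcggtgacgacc
Rps12: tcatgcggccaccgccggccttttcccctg
Rpl4: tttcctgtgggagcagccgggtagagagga
Rps3: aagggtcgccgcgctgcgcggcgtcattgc
These windows lie at chr2:180257369-180257398 on the plus strand (Rps21), chr11:114668570-114668599 plus (Rpl38), chr4:86857348-86857377 minus (Rps6), chr7:45128726-45128755 minus (Rpl13a), chr7:141447641-141447670 plus (Rplp2) and chr3:90213629-90213658 minus (Rps27). Those without the run lie at chr10:23787190-23787219 minus (Rps12), chr9:64173377-64173406 plus (Rpl4) and chr7:99483690-99483719 minus (Rps3).

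Promoter entries, each from 250 bases before to 50 after a start, were found for 62 of the 83 members, 56 of them core. A pyrimidine run at an annotated start was present in 27 of the 56 core genes (48.2%), against 21.2% of all 27025 genes with an entry. Only runs that begin within 5 bases of a start were counted, so these shares depend on where RefSeq places the starts. The letters CCGGAAG, a core of ETS factor sites, stood on either strand in 23 (41.1%), against 9.93% of all genes, and AAGATGG, the core letters of YY1, in 9 (16.1%), against 7.28%. The RUNX letters TGTGGT or TGCGGT stood in 9 (16.1%), against 25% of all genes; none of these 4 letter strings contains another. These matches describe the windows and are not sites of binding.

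Libraries held 44108035 to 58946457 counts over genes and 21973 to 27097 genes with a count. As a check of the labels, total Runx1 was higher in KO: 270, 382 and 325 CPM (counts scaled to a fixed library total) in CD41pos KO1, KO2 and KO3, against 159, 141 and 147 CPM in CD41pos WT1, WT3 and WT4. It was 171, 157 and 163 CPM in CD41neg KO1, KO2 and KO3, against 83.9, 90.5 and 65.7 CPM in CD41neg WT2, WT3 and WT4. The log2 fold changes were 1.13 ± 0.15 and 1.03 ± 0.15 (SE; edgeR quasi-likelihood test, Benjamini-Hochberg adjusted p = 0.00201 in CD41pos and 0.00368 in CD41neg). The labels do not name the deleted part, and totals over the gene cannot check the deletion. Itga2b, which marks the gate, stood at 551 to 1267 CPM in the 6 CD41pos libraries and 49.6 to 270 CPM in the 6 CD41neg libraries. HSC markers (12 of 12 measured) summed to 2074 to 2195 CPM in CD41pos KO and 1055 to 2066 CPM in CD41pos WT, with WT3 the lowest. They summed to 1573 to 2420 CPM in CD41neg KO and 1327 to 2037 CPM in CD41neg WT, with WT4 the lowest. In CD41pos KO over WT, 1 of the 12 rose and 1 fell, with a median log2 fold change of −0.23.

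The 83 genes took 2.15, 2.26 and 2.20% of counts in CD41pos KO1, KO2 and KO3, against 2.66, 4.33 and 2.52% in CD41pos WT1, WT3 and WT4. In CD41neg they took 2.28, 2.51 and 2.36% in KO1, KO2 and KO3, against 2.52, 2.48 and 3.37% in WT2, WT3 and WT4. The libraries of CD41pos KO lay close together and all below those of CD41pos WT, where WT3 stood apart. In CD41neg the groups overlapped, since KO2 lay above WT3, and WT4 was the high one. The means were 2.20 ± 0.0542% in CD41pos KO and 3.17 ± 1.01% in CD41pos WT (SD, n = 3 each), so the difference of these means is of the size of the WT spread. Wilson 95% intervals, which cover counting error only, were at most 0.00591 percentage points to either side. In bulk RNA, fewer cells of a type and less RNA per cell cannot be told apart.

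**Figure D1:**
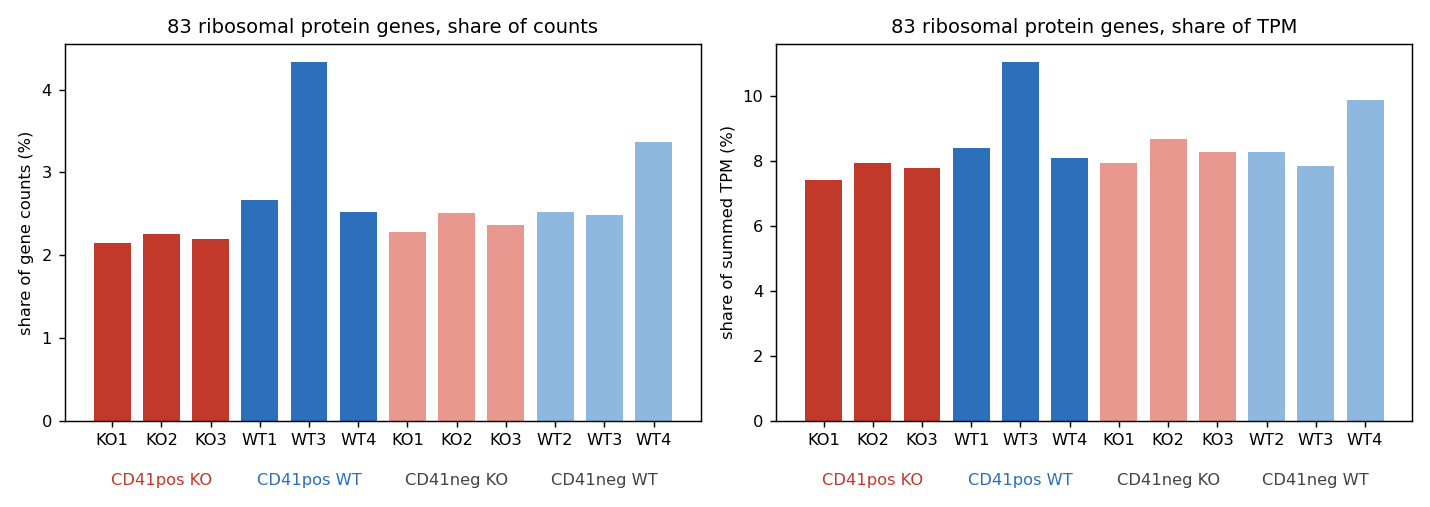
Share of the 83 ribosomal protein genes in each of 12 libraries, in percent of gene counts (left) and in percent of summed TPM (right), grouped by gate and genotype, 1 bar per library. CD41pos WT3 is the tallest bar on both scales (4.33% of counts, 11.04% of TPM), followed by CD41neg WT4 (3.37% and 9.86%).

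CD41pos WT3 was the highest of the 12 libraries for 79 of the 82 members tested, a position it held for 23.3% of all genes tested. Its levels over the mean of CD41pos WT1 and WT4 had a median of 1.89-fold over the core genes. They ran from 1.32-fold for Rpl3, which sits near the peptidyl transferase centre, to 2.46-fold for Rps21, a small subunit protein. In CD41neg no library stood out to this degree; WT4 took 1.35 times the mean share of WT2 and WT3, compared with 1.67 times for CD41pos WT3 over CD41pos WT1 and WT4. Within groups, the median coefficient of variation of a core gene was 3.73% in CD41pos KO and 39.8% in CD41pos WT. Over CD41pos WT1 and WT4 alone it was 5.09%. It was 9.03% in CD41neg KO and 22.6% in CD41neg WT.

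**Figure D2:**
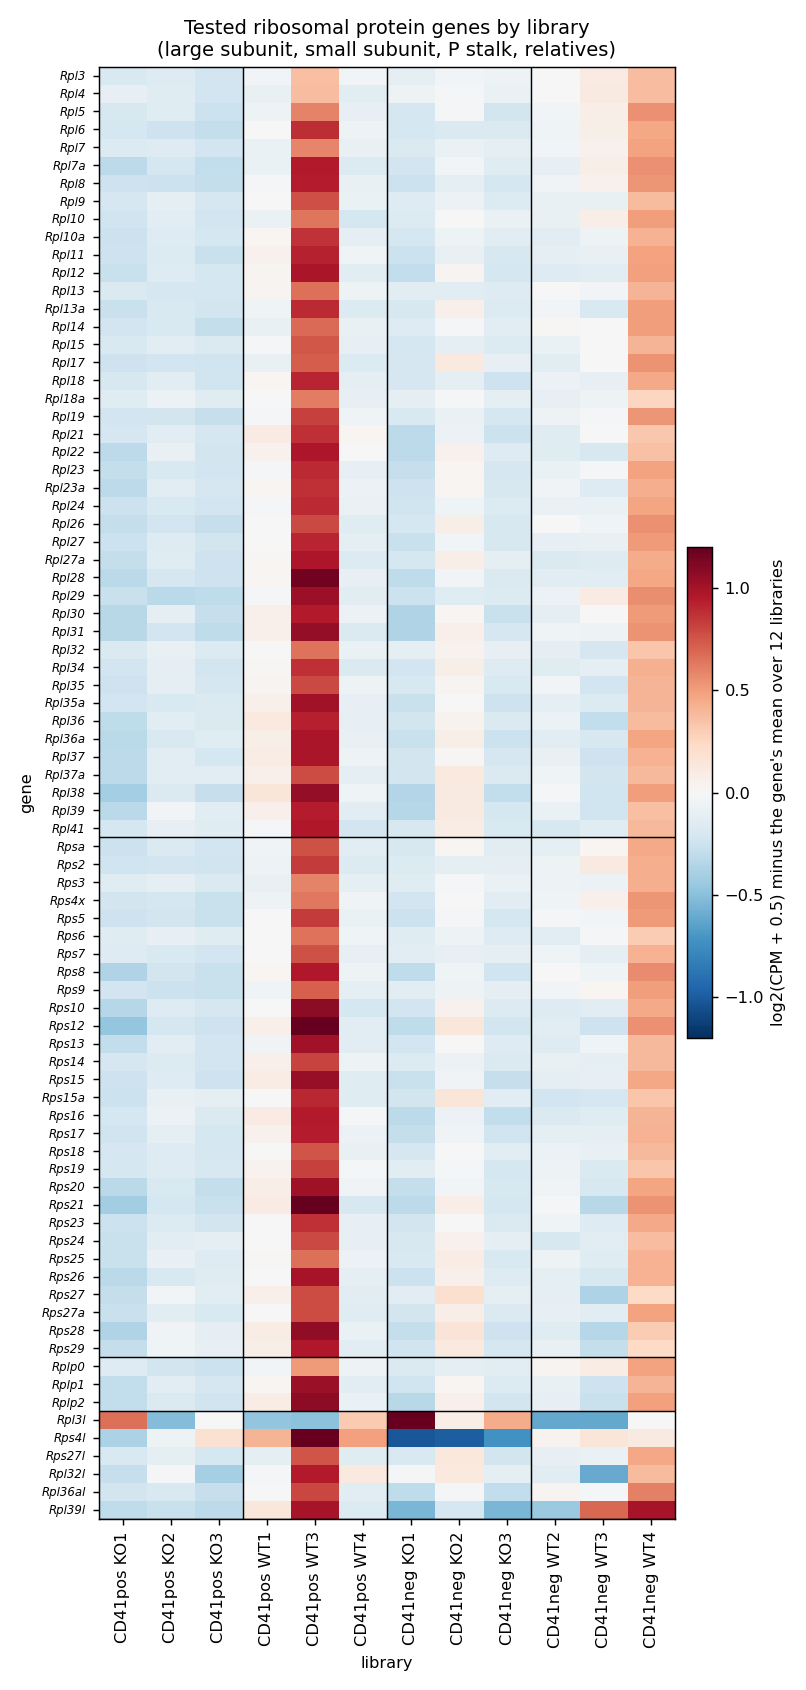
Tested ribosomal protein genes (rows, by class; 1 is not drawn) in each library (columns), as log2(CPM + 0.5) minus the gene's mean over the 12 libraries. The CD41pos WT3 column is the highest for 79 of the 82 genes tested, and the CD41neg WT4 column is raised less; the relatives Rps4l, Rpl3l and Rpl39l in the last rows have patterns of their own.

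By level per length, Rpl13 was the highest member with a mean of 3293 TPM over the 12 libraries, followed by Rpl32 with 3110, Rps14 with 2632, Rps18 with 2465 and Rplp0 with 2316 TPM. The lowest core genes were Rpl22 at 37.9 TPM and Rps24 at 64.6 TPM. These levels rest on the gene lengths behind the deposited TPM: per kilobase of the longest annotated transcript, Rplp0 ranked 1, Rpl32 ranked 6 and Rpl13 ranked 21. The order of the members was nearly the same in every library, with a Spearman rho over members of at least 0.972 between any pair of libraries; the lowest was between CD41pos WT3 and CD41neg WT3. Genes are not independent replicates, and these coefficients are descriptive.

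Between RUNX1 KO and WT in CD41pos HSCs, ribosomal protein genes had negative fold changes, and 1 passed the test. This was Rps4l, a relative of Rps4x, which fell; no member rose. Of all genes tested, 17.1% were called, 9.79% higher and 7.27% lower (edgeR quasi-likelihood test, Benjamini-Hochberg adjusted over all genes tested). Fold changes were negative for 81 of 82 members, against 54.7% of all genes tested, the exception being Rpl3l at 0.84 ± 1.37 (log2, SE); with length-dependent offsets, described with the gene lengths, 52 of the 76 core genes were negative. Every KO library lay below every WT library for 65 members, against 22.4% of all genes, and unadjusted p was under 0.05 for 58, against 35.4%. The median log2 fold change was −0.54 for members and −0.08 for all genes tested. Without WT3, a median of −0.17 remained over the core genes, and all 76 stayed negative, from −0.33 for Rpl38 to −0.03 for Rpl41. The KO libraries lay below both WT1 and WT4 for 65 members, against 29.5% of all genes.

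**Figure D3:**
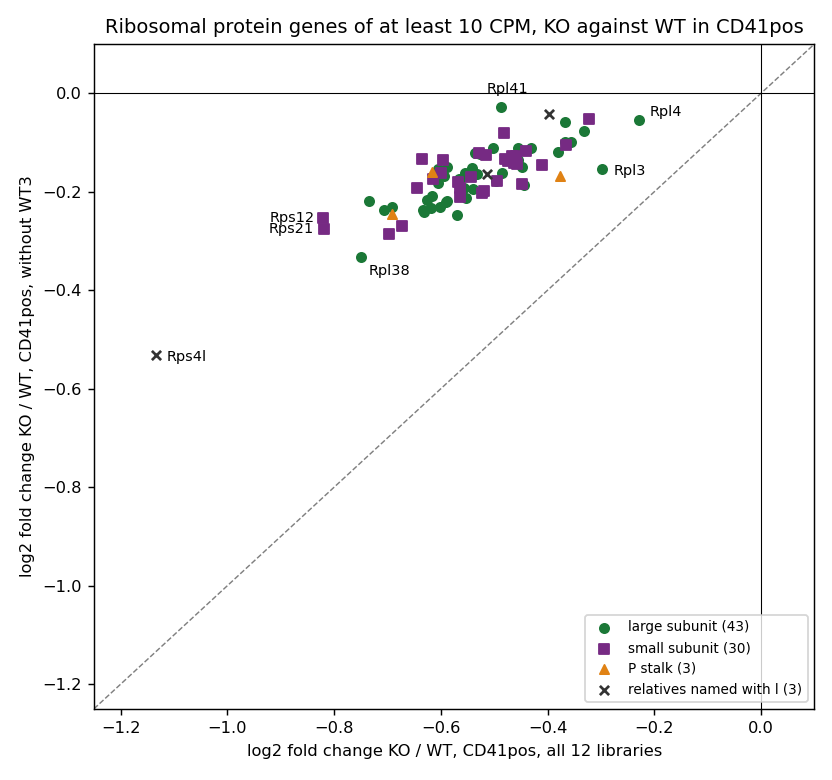
Log2 fold change of KO over WT in CD41pos HSCs for each ribosomal protein gene of at least 10 CPM, with all 12 libraries (horizontal) and without WT3 (vertical), 1 point per gene, marked by class; the dashed line is equality. All points lie above the line and below 0, and Rps4l is the lowest on both axes (−1.13 and −0.53).

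Among small subunit proteins the largest core differences were at Rps21 and Rps12. Rps21 had 73.1, 84.3 and 81.1 CPM in KO1, KO2 and KO3, against 104, 232 and 85.0 CPM in WT1, WT3 and WT4. The fold change was −0.82 ± 0.32 (log2, SE; edgeR quasi-likelihood test, Benjamini-Hochberg adjusted p = 0.093). Rps12 had 98.1, 118 and 114 CPM in the KO libraries and 142, 317 and 124 CPM in the WT libraries in the same order. For both, the groups did not overlap, yet WT4 lay close to the KO libraries and WT3 far above. The smallest difference of this subunit was at Rps3, which lies at the messenger RNA entry channel, with 494, 504 and 484 CPM in KO and 516, 829 and 508 CPM in WT, a log2 fold change of −0.32 ± 0.19.

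Rps6, the substrate of S6 kinase, had 491, 506 and 490 CPM in CD41pos KO1, KO2 and KO3, against 542, 852 and 523 CPM in WT1, WT3 and WT4. Rpsa, known also as the laminin receptor, had 490, 519 and 500 CPM in KO and 568, 993 and 536 CPM in WT. Rps14, whose loss is linked to the human 5q- syndrome, had 422, 435 and 414 CPM in KO and 506, 852 and 468 CPM in WT. In these genes each KO library was below each WT library, and WT3 alone was far from the rest. Log2 fold changes were −0.37 ± 0.17 for Rps6, −0.47 ± 0.21 for Rpsa and −0.52 ± 0.20 for Rps14 (SE), and none passed the test. The 30 small subunit genes had a median of −0.52.

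The 43 large subunit genes had a median log2 fold change of −0.55 in the CD41pos comparison. Rpl38, which in mice is needed for the translation of certain Hox transcripts, had 121, 143 and 133 CPM in KO1, KO2 and KO3, against 178, 335 and 155 CPM in WT1, WT3 and WT4 (−0.75 ± 0.27). Rpl4, which lines the exit tunnel, was at the other end with 912, 882 and 834 CPM in KO and 919, 1265 and 897 CPM in WT, a log2 fold change of −0.23 ± 0.14. Its groups overlapped, since KO1 lay above WT4. Rpl3 had 721, 737 and 700 CPM in KO and 801, 1054 and 798 CPM in WT (−0.30 ± 0.13). Rpl22, which is required for T cell development in mice, had 106, 124 and 113 CPM in KO and 137, 259 and 132 CPM in WT (−0.62 ± 0.24). The smallest adjusted p of any core gene was that of Rpl21, 0.0695 (edgeR quasi-likelihood test, Benjamini-Hochberg), with 279, 293 and 279 CPM in KO and 344, 591 and 327 CPM in WT.

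The P stalk proteins recruit elongation factors to the ribosome. Rplp0, which anchors the stalk, had 879, 840 and 819 CPM in CD41pos KO1, KO2 and KO3, against 959, 1398 and 940 CPM in WT1, WT3 and WT4 (log2 fold change −0.38 ± 0.16, SE). Its partners had larger differences, −0.62 ± 0.26 for Rplp1 and −0.69 ± 0.27 for Rplp2. Rplp2 had 197, 216 and 205 CPM in KO and 258, 511 and 230 CPM in WT. None of the 3 passed the test, and WT3 was the highest library of the gate for each.

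Of 10 members whose human counterparts are mutated in Diamond-Blackfan anaemia, all had negative fold changes and none passed the test, with a median of −0.55. Rps19, the one most often mutated, had 391.6, 406 and 394 CPM in CD41pos KO1, KO2 and KO3, against 467, 798 and 444 CPM in WT1, WT3 and WT4 (log2 fold change −0.52 ± 0.20, SE). Rpl5 and Rpl11 bind 5S RNA and can hold Mdm2, the ubiquitin ligase of p53. Rpl5 had 335, 345 and 320 CPM in KO and 366, 579 and 358 CPM in WT, and Rpl11 had 212, 225 and 210 CPM in KO and 261, 477 and 245 CPM in WT. In all 3 genes the KO libraries were the lowest and WT3 the highest of the gate.

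Relative to one another, the core genes differed little between KO and WT. After subtracting the core median of each library, KO minus WT in CD41pos ran from −0.20 for Rps12 to 0.27 for Rpl4 on the log2 scale, and 75 of 76 genes lay within 0.25 of 0. The median fold change was −0.54 for the 27 core genes with a pyrimidine run within 5 bases of an annotated start. For the 29 with an entry but no such run it was −0.53. It was −0.59 for the 9 with RUNX letters and −0.53 for the 47 without them. In CD41pos WT3 over WT1 and WT4, 62 of 76 genes lay within 0.25 of the core median, with Rpl3 at −0.59 and Rps21 at 0.31 as the extremes.

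How many members passed in CD41pos changed with the fit. Lower calls numbered 32 without WT4, where 8.86% of all genes were called lower, and 32 with a term for 4 WT libraries of neighbouring library numbers (10.7%). Both settings called 26 of the same members. The term left only WT3 of each gate on the side of the KO libraries, so it compared KO with WT at the level of WT3. Leaving out WT4 also gives WT3 more weight, so both settings lean on WT3 and are not independent. Lower calls numbered 12 when only genes of at least 10 CPM were tested (15.8%), 7 with no scaling factor (9.64%), 6 with limma-voom and quality weights (16.1%) and 4 with DESeq2 (11.9%). No member was called without WT3, without any 1 of the CD41pos KO libraries, with only the 2 groups compared, on the TPM scale or with length-dependent offsets. None was called with the replicate block either, which here tied KO and WT libraries that share only a number.

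In CD41neg HSCs the same comparison had smaller differences. No member passed the test, with 7.82% of all genes called, 3.85% higher and 3.97% lower (edgeR quasi-likelihood test, Benjamini-Hochberg), and unadjusted p was under 0.05 for 3 members, against 26.3% of all genes. DESeq2 called 1 lower, Rps4l, beside 8.11% of all genes. Fold changes were negative for 79 of 82, against 51.8%, with a median of −0.24 for members and −0.03 for all genes. Every KO library lay below every WT library for 17 members, against 17.0%. The lowest core gene was Rpl29, a large subunit protein, with 230, 248 and 245 CPM in KO1, KO2 and KO3, against 263, 294 and 404 CPM in WT2, WT3 and WT4 (−0.41 ± 0.26). Rps21 had 78.4, 103 and 84.2 CPM in KO and 96.2, 77.1 and 142 CPM in WT, so its groups overlapped. Without CD41neg WT4 the median was −0.04.

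With the CD41pos WT3 library left out of the shared fit, 5 members were called lower in CD41neg, against 8.72% of all genes. These were Rplp0, Rpl6, Rpl8, Rpl29 and Rps4l. Without WT3 of both gates 8 were called (8.43% of all genes), and limma-voom with quality weights called 3 (9.12%).

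Between gates, no member passed in either genotype. In KO, CD41pos over CD41neg had a median of −0.08 over members, with 78 of 82 negative against 53.1% of all genes; 2.79% of all genes were called, unadjusted p was under 0.05 for 1 member against 13.5% of all genes, and the CD41pos libraries lay wholly below the CD41neg ones for 11 members against 14.1%. In each of the 3 same-numbered KO pairs the members took a smaller share of counts in CD41pos than in CD41neg, and with the replicate block the median was again −0.08 with no member called. In WT the median was 0.23, and 7 of 82 were negative, against 48.9% of all genes. There 5.59% of all genes were called, unadjusted p was under 0.05 for 1 member against 21.6%, and the CD41pos libraries lay wholly above the CD41neg ones for 1 member against 11.5%. The WT median turned to −0.15 without CD41pos WT3 and to −0.02 with limma-voom or length offsets, so the direction in WT was not kept across fits. The interaction of genotype and gate called 0.0% of all genes with edgeR and 72 genes with DESeq2. It gave unadjusted p under 0.05 for no member, against 5.64% of all genes. Its members had a median of −0.28 with 81 of 82 negative, against 52.0% of all genes, and of 0.08 without CD41pos WT3.

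Rps4l had the lowest fold change of any member of at least 10 CPM in both gates. It lies at chr6:148354656-148355598 on the plus strand (GRCm38) within Tmtc1, which is on the minus strand and reached at most 1.09 CPM, and GENCODE lists it as a transcribed processed pseudogene. Rps4l had 14.1, 17.6 and 20.9 CPM in CD41pos KO1, KO2 and KO3, against 24.6, 64.8 and 26.01 CPM in CD41pos WT1, WT3 and WT4. In CD41neg it had 8.85, 9.01 and 10.9 CPM in KO1, KO2 and KO3, against 18.9, 20.4 and 19.9 CPM in WT2, WT3 and WT4. The KO libraries lay below the WT libraries in each gate, and in CD41neg both groups were tight. The log2 fold change of KO over WT was −1.13 ± 0.32 in CD41pos (SE; edgeR quasi-likelihood test, Benjamini-Hochberg adjusted p = 0.0321) and −1.04 ± 0.32 in CD41neg (adjusted p = 0.0662 by the same test).

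The CD41pos call of Rps4l ended without WT3, at −0.53 (edgeR, Benjamini-Hochberg adjusted p = 0.0801), without WT3 of both gates, at −0.51 (adjusted p = 0.0924), and without any of KO1, KO2 and KO3, at −0.99 to −1.28 (adjusted p = 0.0658 to 0.112). It also ended with the replicate block at −1.10 (edgeR, adjusted p = 0.0574), with only the 2 groups compared at −1.11 (edgeR, adjusted p = 0.0951) and with length offsets at −0.57 (edgeR, adjusted p = 0.0998). On the TPM scales limma gave −0.78 and −0.79 (adjusted p = 0.0633 and 0.0685). In CD41neg the gene passed without CD41pos WT3 at −1.04 (adjusted p = 0.00343) and with DESeq2 (adjusted p = 0.0133). It also passed there with limma-voom (adjusted p = 0.0149), with only the 2 groups compared (adjusted p = 0.0244), with the term for 4 WT libraries (adjusted p = 0.0166), with every gene that had a count tested (adjusted p = 0.0409) and without WT3 of both gates (adjusted p = 0.00821). CD41pos over CD41neg was 0.87 ± 0.32 in KO (adjusted p = 0.222) and 0.96 ± 0.32 in WT (adjusted p = 0.0986), neither past the threshold. The KO difference passed without CD41pos WT3 (adjusted p = 0.0131), without WT3 of both gates (adjusted p = 0.0169), with limma-voom (adjusted p = 0.00507) and with only the 2 groups compared (adjusted p = 0.0318), and the WT difference with DESeq2 (adjusted p = 0.032). Without CD41pos WT3 the WT difference was 0.36. Rps4x, an X-linked core gene, had 321, 323 and 311 CPM in CD41pos KO and 359, 580 and 363 CPM in CD41pos WT, then 319, 373 and 341 CPM in CD41neg KO and 361, 390 and 542 CPM in CD41neg WT. Its log2 fold change in CD41pos was −0.45 ± 0.19. The transcripts of Rps4l and Rps4x are 77.9% identical over 904 bases, with a longest shared run of 38 bases, and the labels do not say how reads that match both were counted.

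**Figure D4:**
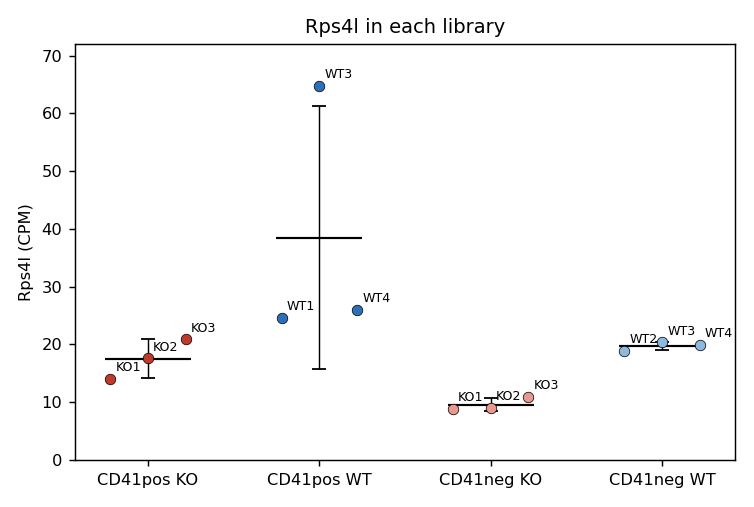
Rps4l in each library, in CPM, with 1 point per library, group means as horizontal lines and SD as error bars (n = 3 each). KO points lie below WT points in each gate, and CD41pos WT3 at 64.8 CPM is far above WT1 and WT4.

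The other relatives ranged from well expressed to nearly absent. Rps27l, a relative of Rps27 that p53 induces, had 153, 161 and 149 CPM in CD41pos KO1, KO2 and KO3, against 160, 293 and 156 CPM in WT1, WT3 and WT4, with overlapping groups (−0.40 ± 0.23, log2, SE). Rpl36al had 165, 170 and 159 CPM in KO and 193, 336 and 175 CPM in WT. Rpl32l had 5.12, 6.27 and 4.67 CPM in KO and 6.26, 12.7 and 6.89 CPM in WT. It is 97.5% identical to Rpl32 over 398 bases, so its counts are uncertain. GENCODE lists Rpl32l as a processed pseudogene, and it overlaps Map7 on the same strand, which had 49.3 to 107 CPM. Rpl39l, known from the testis, reached at most 0.953 CPM, Rpl3l, known from muscle, at most 1.31 CPM, and Rpl10l, another testis gene, at most 0.0392 CPM, which was too low to test.

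Of 6 ribosomal or related genes whose symbols lie outside the rule, none passed the test in CD41pos. Their median log2 fold change was −0.54, and it was −0.18 without WT3 and −0.11 with length offsets. Among them were Fau at −0.71 ± 0.27, Rack1 at −0.54 ± 0.21 and Rps3a1 at −0.32 ± 0.16 (SE). Rpl7l1 at −0.15 ± 0.10 and Rsl24d1 at −0.15 ± 0.12, which act in the making of the large subunit, lay above every core gene. Of 16 other genes with TOP transcripts none passed either, with a median of −0.39, which was −0.08 without WT3. Eef2, which moves the ribosome along the messenger, was at −0.45 ± 0.15, Pabpc1, which binds the poly(A) tail, at −0.47 ± 0.16, and Eef1a1, which delivers tRNA, at −0.11 ± 0.12. DESeq2 called Eef1b2, Eef2 and Pabpc1 lower, and length offsets called Eef2 and Naca lower. These 16 genes summed to 6081 to 6297 CPM in CD41pos KO and 6493 to 9483 CPM in CD41pos WT, where WT3 was the highest. Processed copies named with -ps, 12 in number, had a median of −0.76, and none passed.

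Of 20 regulators of ribosomal protein genes and of TOP translation, 4 rose and 2 fell in CD41pos KO over WT, beside 9.79% and 7.27% of all genes. Gabpa, an ETS factor, rose by 0.61 ± 0.10 on the log2 scale (SE; edgeR, Benjamini-Hochberg adjusted p = 0.00444), and the kinase gene Mtor rose by 0.82 ± 0.21 (adjusted p = 0.0242). Larp4 and Nrf1 also rose. Eif4ebp1, the translation repressor that mTOR inactivates, fell by 0.75 ± 0.23 (adjusted p = 0.0429), and Akt1s1, an mTOR inhibitor, fell as well. In CD41neg, Gabpa rose by 0.51 ± 0.10 (adjusted p = 0.0153) and Akt1s1 fell by 0.57 ± 0.15 (adjusted p = 0.0407). Of 16 genes for ribosomal protein chaperones and nuclear import, 4 rose in CD41pos, all import receptors, with Tnpo1 at 1.01 ± 0.21 (adjusted p = 0.00918), and 3 fell, Aamp, Pdcd2 and Rrp7a. In CD41neg, Nob1 and Rrp7a of this list fell. Without CD41pos WT3, 3 regulators rose (Gabpa, Larp4 and Mtor) and 1 fell (Akt1s1) in CD41pos, while with length offsets none rose and 3 fell. Of the chaperone and import genes, 3 rose and 1 fell in CD41pos without WT3, where Ipo7, Pdcd2 and Rrp7a no longer passed. In CD41neg, 2 regulators rose and 3 fell without CD41pos WT3, and with length offsets Gabpa no longer passed while Gabpb1 did.

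Gene length moved with these differences. The longest annotated transcript of the core genes had a median of 1100 bp, against 3396 bp in 9713 other genes of at least 10 CPM. Among genes outside the members, CD41pos WT3 minus WT1 and WT4 had a median of 0.79 for transcripts under 1 kb, 0.43 for 1 to 2 kb, −0.11 for 2 to 4 kb and −0.40 above 4 kb, on the log2(CPM + 0.5) scale. Members stood at 0.94, 0.88, 0.95 and 0.91 in the same bins, of which the longer ones hold only 11 and 2 members. So WT3 was higher for short genes outside the members. Over the 76 core genes, length had a Spearman rho of −0.25 with WT3 minus WT1 and WT4 and of 0.23 with the KO over WT fold change in CD41pos, the same directions as in other genes; these genes share their libraries, and the coefficients are descriptive. For KO minus WT in CD41pos, medians of other genes were −0.47, −0.32, 0.02 and 0.38 over these bins, and those of members −0.48, −0.45, −0.50 and −0.40. Without WT3 they were −0.20, −0.15, 0.00 and 0.26 for other genes and −0.17, −0.16, −0.16 and −0.10 for members. With offsets fitted to length, the core median was −0.07 and 52 of 76 genes were negative, from −0.93 for Rps20 to 0.14 for Rps27. Without offsets the core median was −0.54. Some members with a long annotated transcript moved the other way. Rps20 (3706 bp) went from −0.70 to −0.93 and Rps24 (4059 bp) from −0.46 to −0.75. The offsets follow the longest annotated transcript, which need not be the main isoform. The part of this length pattern in the ribosomal protein result was not tested.

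**Figure D5:**
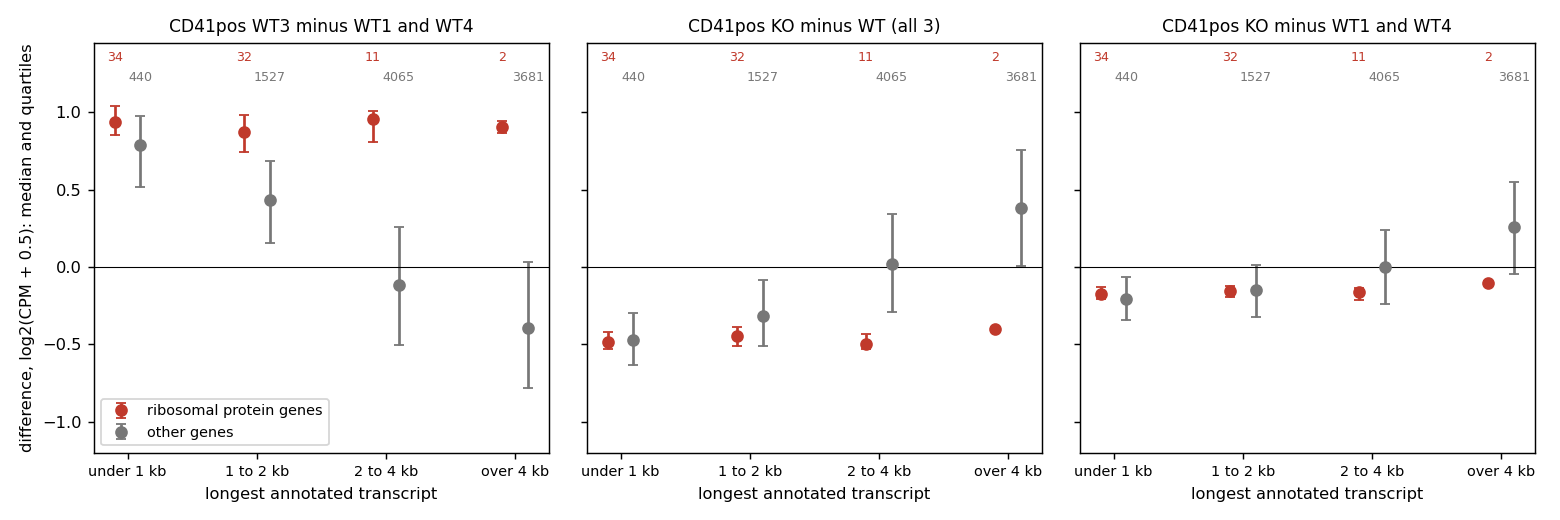
Median (points) and quartiles (bars) of log2(CPM + 0.5) differences by length of the longest annotated transcript, for ribosomal protein genes and other genes of at least 10 CPM, with the number of genes in each bin above. Medians of other genes trend from short to long in all 3 panels, with 0.79 to −0.40 for WT3 minus WT1 and WT4, where those of ribosomal protein genes lie between 0.88 and 0.95, on 11 and 2 genes in the longer bins.

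Markers of several other marrow cells were lower in CD41pos KO, with 5 of 10 granulocyte-monocyte, 3 of 6 mast and basophil and 5 of 10 stromal and endothelial markers called lower and none higher. Among all genes tested in this comparison, 7.27% were called lower and 9.79% higher. Granulocyte-monocyte markers (10 of 10 measured) summed to 2031 to 4450 CPM in CD41pos KO and 5536 to 6907 CPM in CD41pos WT, and to 557 to 1427 CPM in CD41neg KO and 1986 to 3068 CPM in CD41neg WT. Mast and basophil markers (6 of 6) summed to 650 to 675 CPM in CD41pos KO and 907 to 1236 CPM in CD41pos WT. Stromal and endothelial markers (10 of 10) summed to 110 to 126 CPM in CD41pos KO and 233 to 442 CPM in CD41pos WT. Erythroid markers (10 of 10) summed to 1655 to 2337 CPM in CD41pos KO and 1903 to 3015 CPM in CD41pos WT, with the highest sum in WT3; these ranges overlapped, and 1 marker rose and 1 fell. Plasma cell markers (4 of 6 measured) summed to 232 to 274 CPM in CD41pos KO and 322 to 861 CPM in CD41pos WT, T and NK markers (8 of 8) to 78.6 to 137 CPM in CD41pos KO and 227 to 299 CPM in CD41pos WT, and B markers (8 of 8) to 41.1 to 60.9 CPM in CD41pos KO and 52.9 to 68.6 CPM in CD41pos WT; 1 plasma, 1 T and NK and no B marker passed, and the B sums overlapped. Megakaryocyte markers (6 of 6) summed to 1455 to 1810 CPM in CD41pos KO and 1194 to 1262 CPM in CD41pos WT. Most of this is the gate gene Itga2b, and without it the sums were 427 to 543 CPM in CD41pos KO and 580 to 643 CPM in CD41pos WT. Of the 6 markers none rose and 1 fell. The part of these cells in the ribosomal protein differences was not tested.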

How the data were processed

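Per the labels' protocols, sorted HSCs were extracted with a miRNeasy Micro kit and made into libraries with the SMART-Seq v4 kit, which does not mark strand; 48 of the 83 members overlap another annotated gene, and reads of overlapping genes cannot be told apart. The submitters' processing notes name STAR 2.6.1e, featureCounts 1.6.2, cutadapt 1.9.1, FastQC 0.11.7 and the mm10 build, without their settings. The authors deposited whole-number counts per gene, not normalized, and TPM of the same genes. CPM and log2 values were computed from the deposited counts. Members and gene lists were chosen with earlier results of these data known.

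One edgeR quasi-likelihood fit with a mean for each of the 4 groups held all 12 libraries (edgeR 4.0.16, R 4.3.3) with TMM scaling and filterByExpr, which kept 19395 genes and 82 members and left out Rpl10l. P-values were two-sided and Benjamini-Hochberg adjusted across the genes tested, and 0.05 was the threshold; SEs come from the F statistic. The procedure was tested on simulated counts with the same dispersion for every gene. These held no library set apart and no length pattern, so they cannot tell how the fit handles either. Alternatives were DESeq2 1.42.0, limma 3.58.1 (voom with quality weights; log2(TPM + 1) and log2(TPM + 0.1)), other scalings and filters, a replicate block, a term for CD41pos WT1 and WT4 and CD41neg WT2 and WT4 (whose library numbers run up to 6), only the 2 groups compared, and leaving out each library. Length offsets were chosen after seeing the data; lengths are of the longest GENCODE vM21 transcript, since lengths recovered from counts and TPM have no absolute scale, and need not be of the main isoform. Same-numbered KO libraries of the gates deviated together over 10206 genes (r = 0.47, 0.65 and 0.54), those of WT3 and WT4 did not (0.14 and −0.52), so numbers were taken to pair KO libraries only. The replicate block did not keep to this. For KO over WT it gave each number a term shared by KO and WT libraries, which no label links. Between gates it also paired WT3 and WT4. Named members were those called, the 3 highest and lowest fold changes of at least 10 CPM, the 5 highest and lowest by TPM, and a fixed list of 25. From other lists up to 4 genes with the smallest adjusted p were named. Rpl21, members named for calls under an alternative and further list genes were named after their values were seen. Of the genes measured, 2 enter the counts and medians but are not reported singly here. Sequences are RefSeq's (GRCm38.p6), and coordinates are 1-based.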

Additional observations from a re-analysis of the deposited data

How the results depend on the processing

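In CD41pos KO over WT, 1 member was called. That count was 7 with no scaling factor, 12 when at least 10 CPM were asked, 4 with DESeq2, 6 with limma-voom, 32 with the term for 4 WT libraries, and 0 on either TPM scale, with the replicate block, with only the 2 groups compared, without WT3 of both gates or with length offsets. Leaving out 1 library gave 0 to 32 (32 without WT4, 0 without WT3 or any CD41pos KO library). In CD41neg the count of 0 became 1 with every gene tested, with DESeq2, with the replicate block (Rpl3l, higher), with the term or with 2 groups, 3 with limma-voom and 8 without WT3 of both gates, and 0 to 5 when leaving out 1 library. Of all genes, 2.33% were called lower with every gene tested, 8.11% with DESeq2, 3.75% with the term and 3.88% with 2 groups. The replicate block called 1.05% of all genes higher. Between gates it was 1 in KO with limma-voom, with 2 groups or without WT3 of both gates (0 to 1 when leaving out 1 library), and 1 in WT with DESeq2. These were higher calls, beside 10.5%, 4.59% and 2.99% of all genes in KO, in that order, and 5.94% in WT. The member medians for KO over WT stayed negative in each gate under every alternative run. That of CD41pos over CD41neg in WT turned to −0.02 with limma-voom, −0.24 without WT3 of both gates and −0.02 with length offsets, and ran from −0.15 to 0.43 when leaving out 1 library. That of the interaction turned to 0.17 without WT3 of both gates and ran from −0.49 to 0.08. The log2(TPM + 0.1) scale moved the median of all genes in CD41pos to 0.11, where that of members was −0.26. The replicate block changed no call beyond those given, and the cause of these changes was not tested.

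With length offsets, CD41pos fold changes turned positive for Rpl4 (0.09), Rps29 (0.14), Rps27 (0.14), Rpl32 (0.13), Rps6 (0.07), Rplp1 (0.05), Rps27l (0.22), Rps27a (0.04), Rpl39 (0.09), Rpl10 (0.14), Rps4x (0.03) and Rpl41 (0.12); Rpl3l, KO vs WT in CD41pos HSCs, ran from −0.31 (without KO1) to 2.74 (without WT4). As shares of TPM the members took 7.41, 7.92 and 7.78% in CD41pos KO1, KO2 and KO3, against 8.40, 11.04 and 8.07% in CD41pos WT1, WT3 and WT4. In CD41neg they took 7.93, 8.68 and 8.27% in KO1, KO2 and KO3, against 8.26, 7.83 and 9.86% in WT2, WT3 and WT4. The 3 libraries of a group, more than counting depth, limit the precision of these values.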
